A study of Mus musculus with 12 samples.

Results

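The 34 genes described here form the response of cells to low oxygen together with the glycolytic pathway that it feeds, in murine neuroblastoma tumors treated with high intensity focused ultrasound (HIFU). They were chosen as a list of known hypoxia-response and glycolysis genes, with earlier results of these data known. Counts of them beside all probe sets are therefore a description. Each gene was read from the probe set annotated to its symbol. Of the 34 genes, 33 had a named probe set among the 22206 probe sets of the array, which carried 19505 gene symbols. Eno1 was not analysed here. Every one of the 33 had a single named probe set.

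HIFU drives focused sound waves into tissue, and the series names mechanical fractionation of the tumor as the mode used. All tumors grew in A/J mice, an inbred strain, from inoculated neuroblastoma cells, which derive from the sympathetic nervous system. There were 3 HIFU tumors labelled 24 h, 3 labelled 48 h, 3 labelled 72 h and 3 control tumors with no treatment, each on 1 Affymetrix Mouse Clariom S array. The times were read as hours after HIFU, which the labels do not settle. Separate animals are not stated, so p-values measure only the spread between these samples, which may be technical. Of 12 neuroblastoma markers, 10 were measured, and 9 of these lay above the median of their array in all 12 tumors, with Mycn below it in 1. In bulk tumors, fewer cells of a type and less RNA per cell cannot be told apart.

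Cells sense oxygen through prolyl hydroxylases, which use it to mark the hypoxia-inducible factors (HIF) for destruction through the von Hippel-Lindau protein. When oxygen is short, HIF persists and switches on genes for glucose uptake, glycolysis, lactate export, blood vessel growth, mitochondrial removal and collagen maturation. Fast-growing tumors often keep part of this program on even with oxygen present, and several of its enzymes have separate isozymes in nervous tissue and in muscle.

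HIF binds DNA at a short core, ACGTG or GCGTG, and the promoters of the genes were searched for it on both strands (CACGT and CACGC on the other strand). The search covered the 250 bases before each start site in RefSeq GRCm38.p6, where 31 of the 34 genes had an entry. The core was present for 30 of the 31 genes (96.8%), against 48.8% of 15691 genes of the array. The exception was Tpi1. Per window, the core was found in 83.3% of the windows of these genes and in 45.5% of those of the array's genes. The windows of these genes also had more start sites per gene (1.55 against 1.22) and a higher median GC content (64.0% against 56.0%). The palindrome CACGTG, which counts as overlapping cores on the 2 strands, was found in 4 of the genes (12.9%) and in 7.92% of the array's genes. A match is a description of the letters, not of binding.

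The stretches below are shown because they belong to the 8 genes whose 9 HIFU tumors all lay below all 3 controls, and to Egln3, the 1 gene whose HIFU tumors all lay above. Each gives the core nearest a start site, in capitals, with 12 bases on either side, read 5′ to 3′ on the strand of the gene.
Kdm3a (chr6:71632928-71632956, minus strand): ccgggaggctgtGCGTGtcttgtgagaga
Ankrd37 (chr8:45999840-45999868, minus strand): cagtgtttgggtACGTGaggccgcagcgg
Stc2 (chr11:31370276-31370304, minus strand): caccacgcaaacGCGTGgccgccgccagg
Slc16a3 (chr11:120949041-120949069, plus strand): cgtgcgcgggggACGTGccgcgcgacgga
Pfkl (chr10:78009890-78009918, minus strand): atttgtagactgGCGTGcgctccgccttt
Aldoc (chr11:78324147-78324175, plus strand): cctcccatccccCACGCtgcatctcttct
P4ha1 (chr10:59323268-59323296, plus strand): tgtgacagagcgCACGTagcgagggctgc
Ddit4 (chr10:59951869-59951897, minus strand): gacctggaggggGCGTGgcctcgccggga
Egln3 (chr12:54204087-54204115, minus strand): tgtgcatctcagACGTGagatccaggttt
The core of Ankrd37 lay 6 bases before its start and that of Slc16a3 14 bases before, while that of Stc2 lay 231 and that of Egln3 229 bases before. The core was thus present both in the 8 genes with lower signals and in the gene with a higher one. Ddit4 carried the core in both forms, and its whole 250-base window (chr10:59951771-59952020, minus strand) is given with both in capitals.
Ddit4: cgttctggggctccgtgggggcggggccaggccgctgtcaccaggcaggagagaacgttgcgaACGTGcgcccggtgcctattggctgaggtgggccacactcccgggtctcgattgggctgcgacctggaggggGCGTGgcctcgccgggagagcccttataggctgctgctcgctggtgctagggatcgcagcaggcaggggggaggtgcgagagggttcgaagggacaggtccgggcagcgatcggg

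Most of the 33 genes had lower signals in HIFU tumors than in controls, but the difference of no single gene passed the test across all probe sets. The signals are log2 values per probe set, and differences are HIFU minus control on the log2 scale. Of the 33 genes, 26 had a negative difference at 24 h, 22 at 48 h and 25 at 72 h. The median difference of the 33 genes was -0.60 at 24 h, -0.47 at 48 h and -0.65 at 72 h. Over all 22206 probe sets it was 0.00, 0.01 and -0.06. Negative at all 3 times were 21 genes, 7 were positive at all 3 (Egln3, Hk2, Aldoa, Pkm, Pfkfb3, Pfkfb4 and Ndrg1), and 5 had mixed signs (Car9, Tpi1, Pgk1, Higd1a and Mxi1).

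At an adjusted p under 0.05 (limma, Benjamini-Hochberg over all probe sets), 0 of the 33 genes passed at 24 h, where 0.054% of all probe sets did. The count was also 0 at 48 h (all probe sets 0.0045%), at 72 h (0.00901%) and for the mean of the 3 HIFU groups (0.018%). At an unadjusted p under 0.05, 11 of the 33 genes were lower at 24 h, against 5.86% of all probe sets, and 2 were higher, against 3.98%. At 48 h 11 genes were lower (all probe sets 8.01%) and 3 higher (5.3%), and at 72 h 12 were lower (5.39%) and 2 higher (5.85%). For the mean of the HIFU groups 13 were lower (8.59%) and 4 higher (6.01%). Outside the lowest 25% of probe sets by mean signal, the shares lower were 7.58%, 10.4% and 6.81% at 24, 48 and 72 h. The shares higher were 4.59%, 5.9% and 7.37%. For the mean of the HIFU groups these shares were 11.2% lower and 7.5% higher.

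A second description counts the genes whose tumors did not overlap between the groups. At 24 h the 3 HIFU tumors lay below all 3 controls for 15 of the 33 genes, where 7.68% of all probe sets did so, and above them for 1, where 6.84% did. The counts were 10 below (all probe sets 11.7%) and 3 above (10.3%) at 48 h, and 13 below (10.1%) and 1 above (8.99%) at 72 h. All 9 HIFU tumors lay below all controls for 8 genes (1.65% of all probe sets) and above them for 1 (1.76%). The 8 genes were Kdm3a, Ankrd37, Stc2, Slc16a3, Pfkl, Aldoc, P4ha1 and Ddit4, and they come from 6 of the 8 role groups described below. All 33 genes were outside the lowest 25% of probe sets by mean signal. Among the 16654 such probe sets, the shares below were 9.27%, 14.7% and 11.1% at 24, 48 and 72 h. The shares above were 6.81%, 10.4% and 10.4%. For all 9 HIFU tumors they were 2.11% below and 2.14% above.

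**Figure D1:**
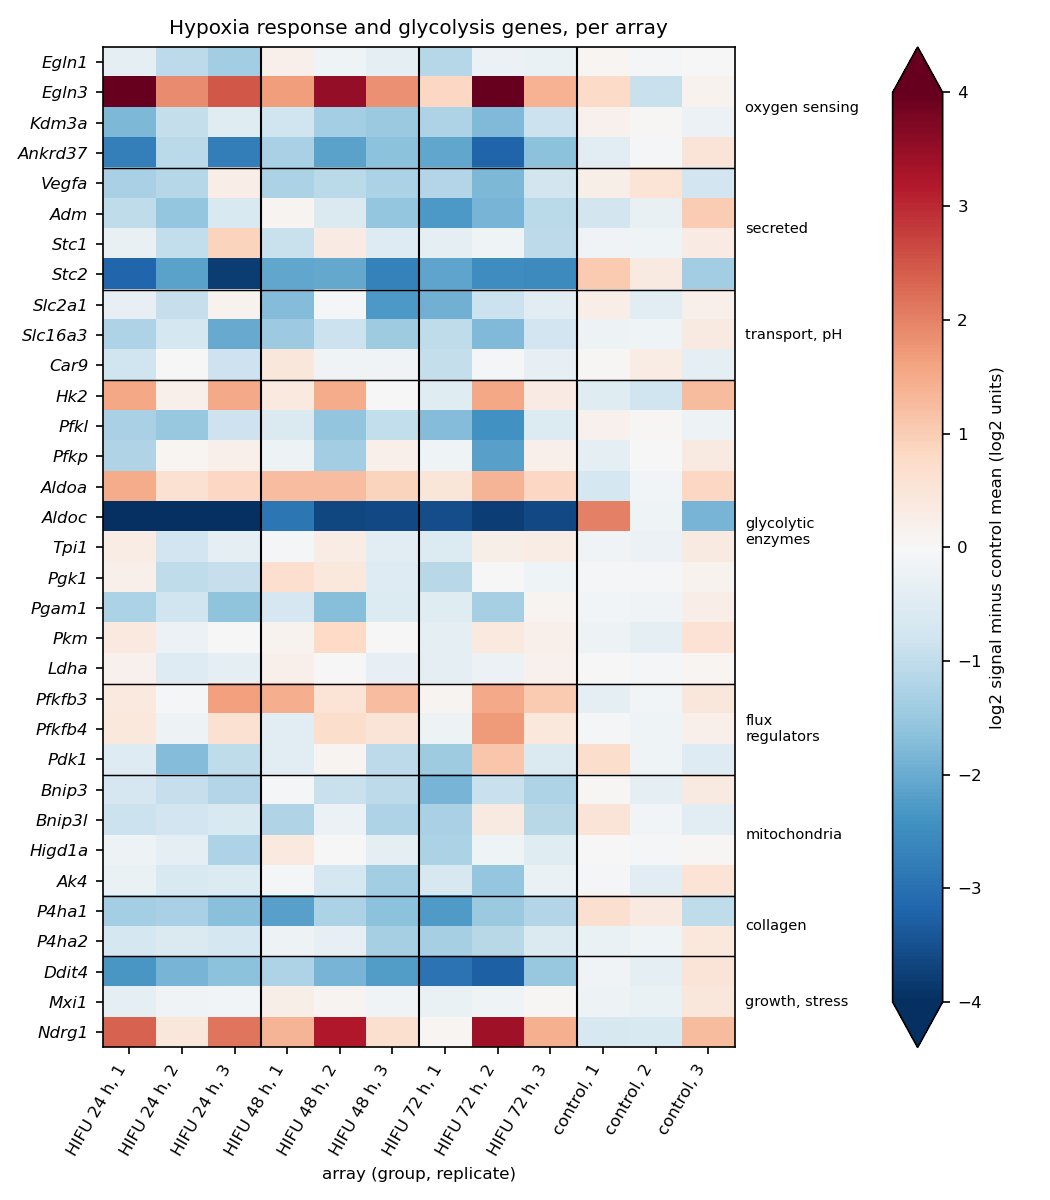
Log2 signal of each of the 33 genes (rows, grouped by role) in each tumor (columns), minus that gene's control mean, with blue for lower and red for higher; colors stop at 4 log2 units in either direction. Aldoc, Stc2, Ddit4 and Ankrd37 are blue in all 9 HIFU tumors, and Egln3 is red in all 9.

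The oxygen sensors and their feedback genes parted in direction. Egln3 encodes a prolyl hydroxylase that HIF itself induces, and Egln1 the main prolyl hydroxylase that marks HIF. Egln3 (probe set TC1200001742.mm.2, chromosome 12) had signals of 11.22, 8.82 and 9.43 at 24 h, 8.60, 10.47 and 8.76 at 48 h, and 7.77, 11.36 and 8.33 at 72 h, against 7.69, 6.05 and 7.08 in controls. Every HIFU tumor was above every control, by a narrow margin in the lowest one, 72 h replicate 1. The differences were 2.88 ± 0.92 SE at 24 h, 2.34 at 48 h and 2.21 at 72 h, and 2.48 ± 0.75 SE for the mean of the HIFU groups, 5.57-fold (limma, adjusted p = 0.194). The highest Egln3 signal at each time was in the tumor with the most skeletal muscle transcript of that time, as given further below. That tumor also had the highest fibroblast and endothelial marker medians of its time. Egln1 lay at 12.40 ± 0.52 at 24 h, 13.21 ± 0.30 at 48 h and 12.78 ± 0.51 at 72 h, against 13.33 ± 0.06 in controls (SD, n = 3 each). Its HIFU tumors were all below the controls at 24 and 72 h, with a difference of -0.93 ± 0.32 SE at 24 h (adjusted p = 0.4), and overlapped them at 48 h.

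Kdm3a and Ankrd37, HIF targets encoding a histone demethylase and a small ankyrin-repeat protein, were lower in all 9 HIFU tumors. Ankrd37 (TC0800002153.mm.2, chromosome 8) had signals of 7.21, 8.87 and 7.16 at 24 h, 8.63, 7.81 and 8.30 at 48 h, and 7.85, 6.72 and 8.31 at 72 h, against 9.50, 9.87 and 10.44 in controls. The groups were apart at each time, and the lowest tumor was 72 h replicate 2. For the mean of the HIFU groups Ankrd37 differed by -2.06 ± 0.42 SE, 4.18-fold lower (adjusted p = 0.125), and by -2.19, -1.69 and -2.31 at 24, 48 and 72 h. Kdm3a (TC0600002472.mm.2, chromosome 6) had signals of 7.71, 8.57 and 9.03 at 24 h, 8.72, 8.15 and 8.05 at 48 h, and 8.29, 7.74 and 8.66 at 72 h, against 9.70, 9.58 and 9.28 in controls. The gap between the groups was small, since 24 h replicate 3 came close to control replicate 3. Its difference was -1.20 ± 0.29 SE, 2.29-fold lower (adjusted p = 0.133).

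Of the secreted factors, Stc2 stood lowest against controls. Stc2 encodes stanniocalcin, a glycoprotein hormone, and is a target of both hypoxia and the unfolded protein response. Its probe set (TC1100002457.mm.2, chromosome 11) had signals of 6.44, 7.46 and 5.81 at 24 h, 7.52, 7.57 and 6.91 at 48 h, and 7.51, 7.13 and 7.06 at 72 h, against 10.65, 9.96 and 8.22 in controls. The HIFU tumors were all below the controls, which themselves spread widely, with control replicate 3 nearest to the HIFU tumors. Stc2 differed by -3.04 ± 0.56 SE at 24 h, -2.28 at 48 h and -2.38 at 72 h, and by -2.56 ± 0.46 SE for the mean of the HIFU groups, 5.92-fold lower (adjusted p = 0.11).

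The other secreted factors overlapped between groups in at least 1 time. Vegfa, the growth factor that drives blood vessel sprouting, averaged 12.10 ± 0.85 at 24 h, 11.62 ± 0.11 at 48 h and 11.59 ± 0.53 at 72 h, against 12.83 ± 0.68 in controls (SD, n = 3 each). Its tumors were apart from the controls at 48 h alone, with a difference of -1.21 ± 0.45 SE (adjusted p = 0.299). Adm, which encodes the vasodilator peptide adrenomedullin, averaged 9.10 ± 0.63 at 72 h against 10.84 ± 0.91 in controls, a difference of -1.74 ± 0.52 SE (adjusted p = 0.309), and its tumors did not overlap at that time. Stc1, the paralog of Stc2, had differences between -0.53 and -0.13 at the 3 times, and its signal was below the array median in 4 of the 12 tumors.

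The lactate exporter Slc16a3 and the glucose importer Slc2a1 both had lower mean signals, with Slc16a3 the more uniform. Slc16a3 encodes MCT4, the transporter through which glycolytic cells release lactate. It (TC1100002052.mm.2, chromosome 11) had signals of 15.11, 15.65 and 14.34 at 24 h, 14.90, 15.50 and 14.93 at 48 h, and 15.33, 14.58 and 15.58 at 72 h, against 16.15, 16.19 and 16.70 in controls. All HIFU tumors were below all controls, with little spread among the controls. The difference was -1.24 ± 0.30 SE for the mean of the HIFU groups, 2.37-fold lower (adjusted p = 0.131), and between -1.31 and -1.18 at the single times. Slc2a1, the glucose transporter GLUT1, ranged from 11.23 to 13.65 with a median of 12.64 in the 9 HIFU tumors, against 13.05 to 13.78 in controls, and differed by -0.94 ± 0.45 SE (adjusted p = 0.367). Car9, a carbonic anhydrase at the cell surface that is a standard marker of hypoxic tumor regions, was below the median of the array in all 12 tumors, from 3.73 to 5.12 in HIFU tumors and from 4.31 to 4.98 in controls. Car9 differed by -0.31 ± 0.26 SE for the mean of the HIFU groups (adjusted p = 0.639).

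Among the 10 measured enzymes of the glycolytic chain, Aldoc had the widest difference of all 33 genes. Aldoc encodes aldolase C, the isozyme typical of brain. Its probe set (TC1100001156.mm.2, chromosome 11) had signals of 6.06, 6.20 and 5.48 at 24 h, 7.31, 6.57 and 6.60 at 48 h, and 6.65, 6.45 and 6.61 at 72 h, against 12.24, 10.04 and 8.35 in controls. The 9 HIFU tumors lay close together and below every control, while the controls ran over several log2 units, highest in replicate 1 and lowest in replicate 3. The HIFU signals ran from 5.48 to 7.31 beside array medians of 5.43 to 5.68, and 24 h replicate 3 was below its array median. The differences were -4.30 ± 0.72 SE at 24 h, 19.6-fold lower (adjusted p = 0.0956), -3.38 at 48 h (adjusted p = 0.202) and -3.64 at 72 h (adjusted p = 0.216). For the mean of the HIFU groups the difference was -3.77 ± 0.58 SE, 13.7-fold lower (adjusted p = 0.0631), the smallest adjusted p of the 33 genes.

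Pfkl, the liver-type subunit of phosphofructokinase, which commits glucose to glycolysis, was the other enzyme with no overlap. Pfkl (TC1000002438.mm.2, chromosome 10) had signals of 11.05, 10.82 and 11.52 at 24 h, 11.75, 10.76 and 11.34 at 48 h, and 10.59, 9.93 and 11.80 at 72 h, against 12.50, 12.39 and 12.12 in controls. The gap was narrow at its closest point, between 72 h replicate 3 and control replicate 3. Pfkl differed by -1.27 ± 0.35 SE, 2.42-fold lower (adjusted p = 0.156). Pgam1, a phosphoglycerate mutase, was below all controls at 24 and 48 h, with a difference of -1.22 ± 0.40 SE at 24 h (adjusted p = 0.383), and overlapped them at 72 h.

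Some enzymes had positive mean differences. Aldoa, the aldolase of muscle and most other tissues, had signals from 18.77 to 19.75 in HIFU tumors, against 17.56, 18.16 and 19.11 in controls, and differed by 1.00 ± 0.32 SE, 1.99-fold (adjusted p = 0.208). Only control replicate 3 reached the range of the HIFU tumors. Hk2, the inducible hexokinase, differed by 0.73 ± 0.54 SE (adjusted p = 0.573), and its controls ran from 8.99 to 11.07, as wide as its HIFU tumors at 9.31 to 11.35. Pkm, pyruvate kinase, differed by 0.15 ± 0.27 SE (adjusted p = 0.855). Small differences were also measured for Ldha, lactate dehydrogenase (-0.14 ± 0.21 SE), Tpi1, triosephosphate isomerase (-0.12 ± 0.28 SE), and Pgk1, phosphoglycerate kinase (-0.27 ± 0.34 SE). Pfkp, the platelet-type phosphofructokinase subunit, differed by -0.50 ± 0.51 SE, and its lowest signal, 13.96, was in 72 h replicate 2.

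**Figure D2:**
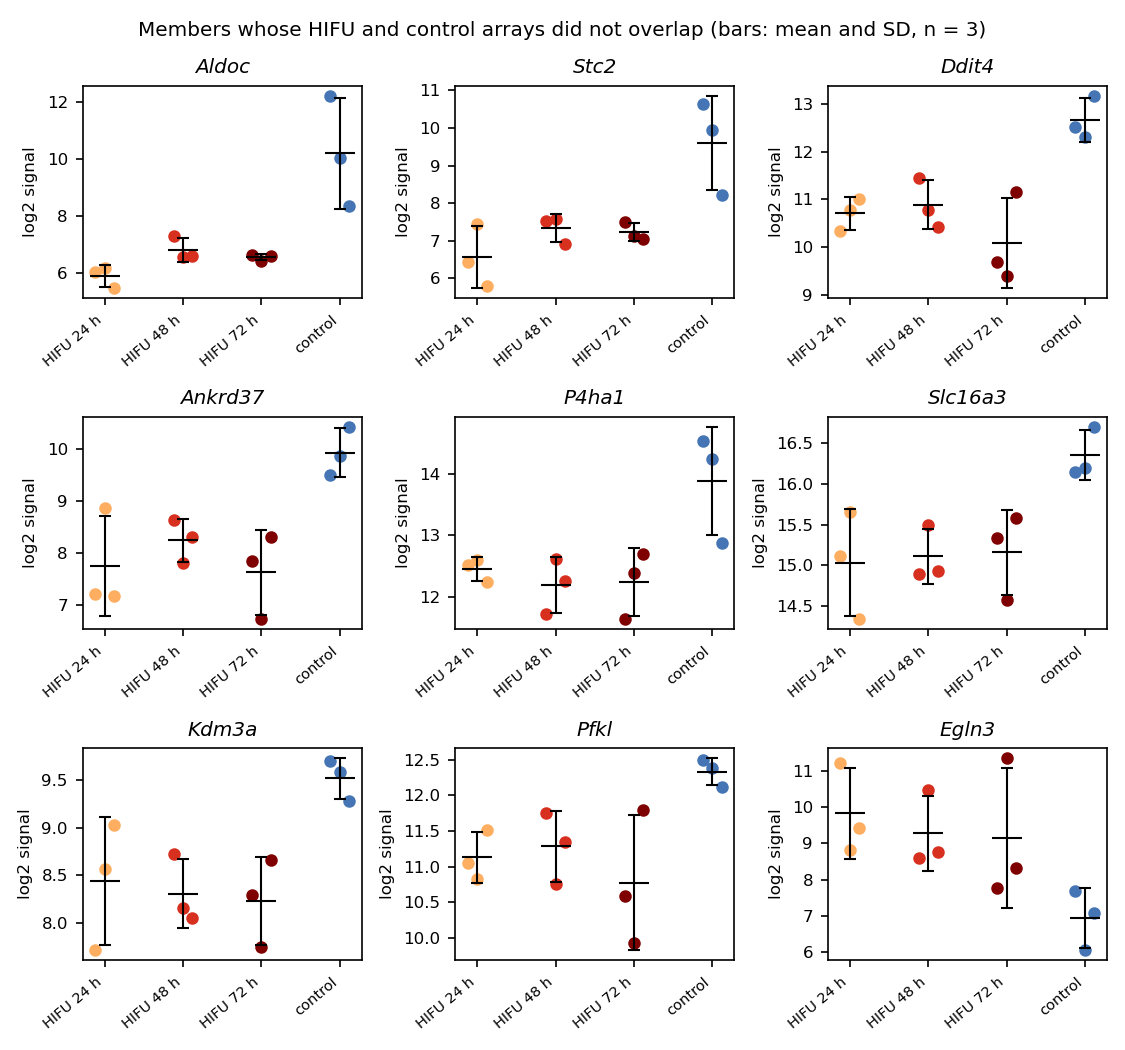
Log2 signal in each tumor (points) for the 9 genes whose HIFU and control tumors did not overlap, by group, with the group mean and SD (bars, n = 3); each panel has its own axis, which does not start at 0. The 9 HIFU tumors lie below the 3 controls in 8 panels and above them for Egln3.

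The regulators that steer flux did not share a direction. Pfkfb3 and Pfkfb4 make the fructose bisphosphate that activates phosphofructokinase. Pfkfb3 had signals from 9.58 to 11.27 in HIFU tumors, against 9.26, 9.52 and 10.08 in controls, and was apart from the controls at 48 h, with a difference of 1.09 ± 0.48 SE (adjusted p = 0.359). Pfkfb4 differed by 0.39 ± 0.37 SE for the mean of the HIFU groups, with 8 of 12 tumors below the array median. Pdk1, a kinase that keeps pyruvate out of the mitochondria, was below all controls at 24 h with a difference of -1.09 ± 0.59 SE (adjusted p = 0.585), and 72 h replicate 2, at 9.86, was above all of them.

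The genes of mitochondria and of mitochondrial removal had lower mean signals, with overlap in at least 1 time for each. Bnip3, a receptor for mitophagy, had signals of 10.33, 10.06 and 9.82 at 24 h, 10.93, 10.09 and 9.95 at 48 h, and 9.13, 10.10 and 9.77 at 72 h, against 11.05, 10.59 and 11.34 in controls. Its tumors were apart from the controls at 24 and 72 h, and 48 h replicate 1 lay among the controls. Bnip3 differed by -0.92 ± 0.34 SE at 24 h, -0.67 at 48 h and -1.33 at 72 h (adjusted p = 0.424, 0.415 and 0.275). Its paralog Bnip3l differed by -0.77 ± 0.36 SE for the mean of the HIFU groups (adjusted p = 0.345). Higd1a, a small protein of the inner mitochondrial membrane, differed by -0.60 at 24 h, 0.00 at 48 h and -0.65 at 72 h. Ak4, a mitochondrial adenylate kinase, differed by -0.67 ± 0.33 SE for the mean (adjusted p = 0.374).

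Both collagen prolyl hydroxylases had lower mean signals at all times. P4ha1 and P4ha2 encode catalytic subunits that hydroxylate proline in collagen, which stabilizes its triple helix. P4ha1 (TC1000000531.mm.2, chromosome 10) had signals of 12.52, 12.59 and 12.23 at 24 h, 11.71, 12.62 and 12.25 at 48 h, and 11.63, 12.39 and 12.70 at 72 h, against 14.54, 14.24 and 12.88 in controls. All HIFU tumors were below all controls, and control replicate 3 was close to the highest of them. P4ha1 differed by -1.59 ± 0.35 SE for the mean of the HIFU groups, 3.02-fold lower (adjusted p = 0.125). P4ha2 differed by -0.66 at 24 h, -0.62 at 48 h and -1.0 ± 0.33 SE at 72 h (adjusted p = 0.327), and was below all controls at 24 and 72 h. Of 7 measured markers of fibroblasts, the cells that make most collagen, 6 had higher mean signals in HIFU tumors than in controls at each time and Fbln1 a lower one, and 0 passed the threshold; their part in these differences was not tested.

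Ddit4 and Ndrg1, stress genes of the same program, stood on opposite sides of the controls. Ddit4 encodes REDD1, an inhibitor of mTOR signaling induced by hypoxia, glucocorticoids and energy stress. It (TC1000002224.mm.2, chromosome 10) had signals of 10.34, 10.79 and 11.01 at 24 h, 11.44, 10.79 and 10.43 at 48 h, and 9.70, 9.40 and 11.16 at 72 h, against 12.52, 12.30 and 13.17 in controls. The groups were well apart at each time, and the lowest tumors were at 72 h. Ddit4 differed by -1.95 ± 0.45 SE at 24 h, -1.78 at 48 h and -2.58 ± 0.45 SE at 72 h, 5.97-fold lower (adjusted p = 0.146 at 72 h). For the mean of the HIFU groups the difference was -2.10 ± 0.37 SE, 4.29-fold lower (adjusted p = 0.104). Ndrg1, a stress and differentiation gene, had signals of 9.38, 7.49 and 9.17 at 24 h, 8.39, 10.24 and 7.67 at 48 h, and 7.10, 10.42 and 8.46 at 72 h, against 6.38, 6.41 and 8.30 in controls. All 9 HIFU tumors were above control replicates 1 and 2, and control replicate 3 lay within their range. Ndrg1 differed by 1.67 ± 0.74 SE (adjusted p = 0.333). Mxi1, an antagonist of Myc, differed by -0.08 ± 0.19 SE.

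**Figure D3:**
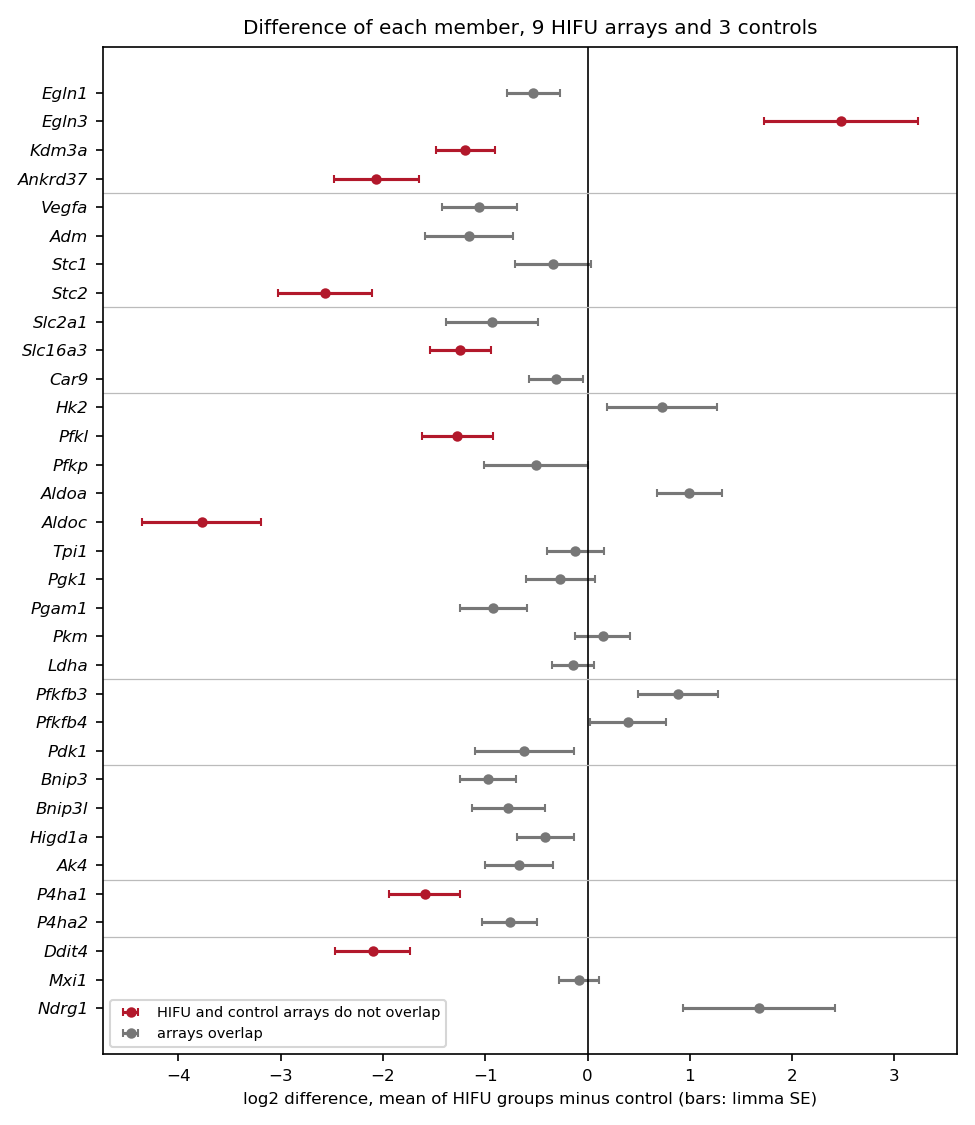
Difference of each of the 33 genes between the 3 HIFU groups, averaged, and control (points, log2 units) with its limma standard error (bars); red marks the 9 genes whose HIFU and control tumors did not overlap. Aldoc lies farthest left at -3.77 and Egln3 farthest right at 2.48.

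No difference between times passed the test. Between 48 h and 24 h, between 72 h and 48 h and between 72 h and 24 h, 0 of the 33 genes passed an adjusted p of 0.05, and 0.0% of all probe sets did in each (limma). Differences of the 33 genes ran from -0.99 (Slc2a1) to 0.91 (Aldoc) between 48 h and 24 h, from -1.07 (Adm) to 0.41 between 72 h and 48 h, and from -0.71 to 0.80 between 72 h and 24 h. At an unadjusted p under 0.05, Egln1 alone was higher at 48 h than at 24 h, by 0.81 ± 0.32 SE, where 1.85% of all probe sets were higher. At that level 0 genes were lower at 48 h than at 24 h (all probe sets 2.04%), 0 were lower or higher at 72 h than at 48 h (2.93% and 3.33%), and 0 lower or higher at 72 h than at 24 h (2.35% and 3.22%). Aldoc was higher in all 48 h and all 72 h tumors than in all 24 h tumors, where 3.43% and 4.53% of all probe sets did so, with differences of 0.91 ± 0.72 SE and 0.66 ± 0.72 SE. No other gene of the 33 was apart between times: 0 lay below at 48 h against 24 h (all probe sets 3.7%), 0 below or above at 72 h against 48 h (6.73% and 4.7%), and 0 below at 72 h against 24 h (4.9%).

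The HIF system itself had no gene past the threshold. Of 9 genes, 4 had negative and 5 positive differences for the mean of the HIFU groups, with a median of 0.07, against -0.62 for the 33 genes and -0.01 for all probe sets. Vhl, whose product targets HIF for destruction, had signals of 6.94 to 7.52 with a median of 7.34 in HIFU tumors, against 8.56, 7.99 and 7.70 in controls, and differed by -0.80 ± 0.20 SE (adjusted p = 0.139). Epas1, which encodes the HIF subunit prominent in endothelium, ranged from 5.71 to 7.70 in HIFU tumors, against 4.44, 4.54 and 5.81 in controls, and differed by 1.85 ± 0.46 SE (adjusted p = 0.141). All HIFU tumors were below the controls for Vhl, and for Epas1 control replicate 3 lay within their range.

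Of 12 measured genes of the Vegf and adrenomedullin systems, 7 had negative and 5 positive differences for the mean of the HIFU groups, with a median of -0.03, and 0 passed the threshold. Kdr, the main Vegf receptor of endothelium, differed by 1.77 ± 0.56 SE (adjusted p = 0.208), and Calcrl, the adrenomedullin receptor, by 1.33 ± 0.59 SE (adjusted p = 0.332), beside -1.06 ± 0.37 SE for Vegfa and -1.16 ± 0.43 SE for Adm. The Calcrl partners Ramp1, Ramp2 and Ramp3 differed by -1.31, -0.42 and -0.22, and the Vegf co-receptor Nrp2 by -0.51. Signals of Kdr ran from 6.99 to 9.54 in HIFU tumors, against 6.17, 6.49 and 7.21 in controls. The median of 8 endothelial markers, relative to its control mean, was 0.10 to 1.60 in HIFU tumors and -0.26 to 0.36 in controls, and its part in these differences was not tested.

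Of 26 other hypoxia targets measured, 15 had negative and 11 positive differences for the mean of the HIFU groups, with a median of -0.13, and 0 passed. At an unadjusted p under 0.05, 5 were lower and 4 higher, and 2 were below all controls in all HIFU tumors, beside 8.59%, 6.01% and 1.65% of all probe sets. Whether this list differed from the 33 genes was not tested. Fam162a, a hypoxia-induced mitochondrial protein, was below all controls in all HIFU tumors and differed by -1.0 ± 0.28 SE (adjusted p = 0.166). The margin was narrow, with 48 h replicate 1 at 10.97 and control replicate 2 at 10.98. Ppp1r3c, which directs a phosphatase to glycogen, ranged from 8.28 to 13.26 in HIFU tumors, against 8.22, 7.27 and 8.39 in controls, and differed by 2.68 ± 0.82 SE (adjusted p = 0.194).

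Further glycolysis genes leaned upward, and Pdk4 passed the test. Of 19 measured, 16 had positive differences for the mean of the HIFU groups, with a median of 0.76, and 1 passed the threshold. Pdk4, a kinase that keeps pyruvate out of the mitochondria in fasting muscle and heart, had signals from 10.34 to 15.27 with a median of 12.73 in HIFU tumors, against 8.39, 8.08 and 7.88 in controls. It rose by 6.74 ± 0.66 SE at 24 h (adjusted p = 0.00589) and by 4.91 ± 0.54 SE for the mean of the HIFU groups (adjusted p = 0.0163), while its paralog Pdk1, one of the 33 genes, differed by -0.62 ± 0.48 SE. With the muscle covariate described below, and without control replicate 1 or 2 or 24 h replicate 1 or 3, 0 probe sets passed at 24 h, so that call of Pdk4 was lost. Pgam2, the phosphoglycerate mutase of muscle, ranged from 8.39 to 13.34 in HIFU tumors, against 6.20, 6.15 and 8.57 in controls, and differed by 3.38 ± 0.90 SE (adjusted p = 0.151).

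Isozymes of the same step were set side by side after their values were seen, so they are a description, and some families had mean differences of both signs. Aldoc differed by -3.77 for the mean of the HIFU groups and Aldoa by 1.00. Among phosphofructokinase subunits the difference was -1.27 for Pfkl and -0.50 for Pfkp, against 2.63 for Pfkm, the muscle subunit. Pgam1 differed by -0.92 and the muscle gene Pgam2 by 3.38. The neuronal enolase Eno2 differed by -0.82 and the muscle enolase Eno3 by 3.30. Slc2a1 differed by -0.94 and Slc2a3, the neuronal glucose transporter, by -0.42, against 2.26 for Slc2a4, the insulin-responsive transporter of muscle and fat. The prolyl hydroxylases differed by -0.53 for Egln1 and 2.48 for Egln3. Egln2, of the same family, averaged 7.80 in HIFU tumors and 7.73 in controls. Other families had 1 sign: the hexokinases Hk1, Hk2 and Hk3 differed by 0.09, 0.73 and 0.11, Pfkfb3 and Pfkfb4 by 0.88 and 0.39, and the lactate transporters Slc16a1 and Slc16a3 by -0.29 and -1.24.

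**Figure D4:**
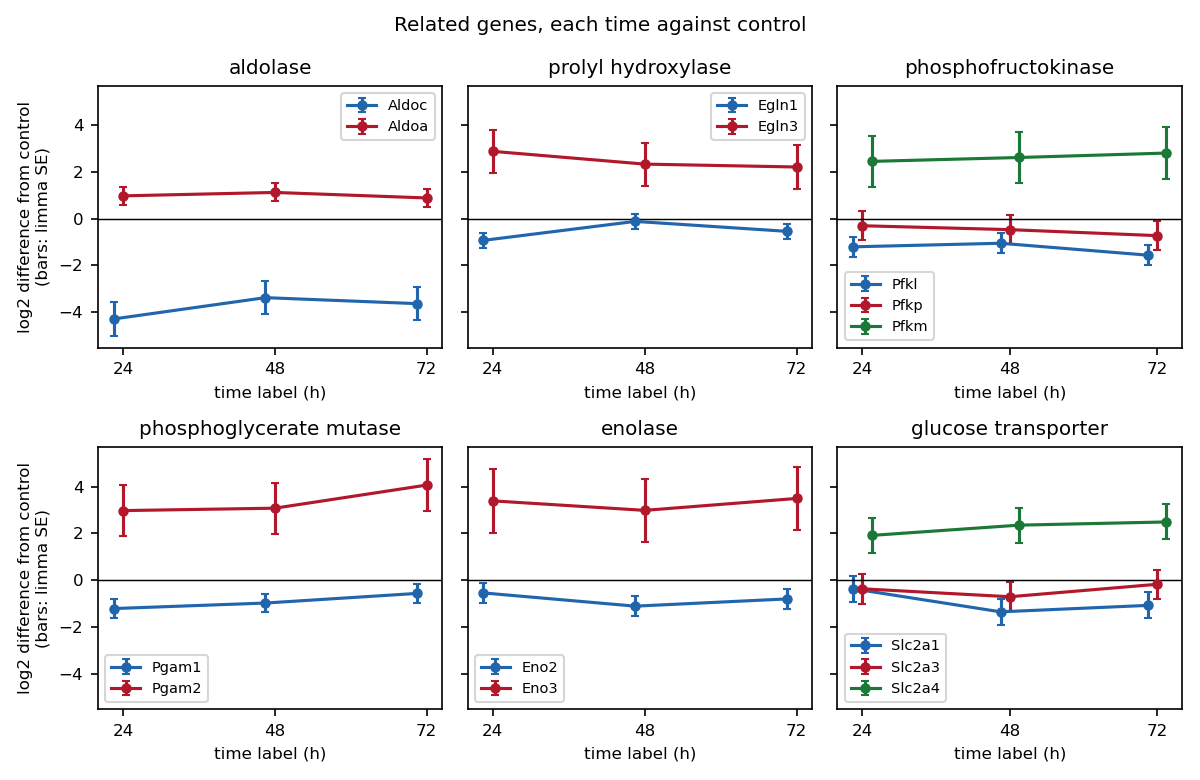
Log2 difference from control (y axis, bars limma SE) by time label (x axis, hours; points are set slightly apart) for genes of the same step or family. Pfkm, Pgam2, Eno3 and Slc2a4 lie above 0 at all times, as do Aldoa and Egln3, and Aldoc lies lowest. Egln2 is not shown.

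For 18 of 18 skeletal muscle markers the mean HIFU signal was above that of controls, as for 10975 of 22206 probe sets, although 0 passed the threshold. At an unadjusted p under 0.05 (limma), 18 of 18 were higher for the mean of the HIFU groups, beside 6.01% of all probe sets. The median of these markers, relative to its control mean, was 5.23, 2.02 and 2.74 in the 24 h tumors, 3.24, 4.08 and 2.72 at 48 h and 2.20, 5.51 and 2.80 at 72 h, against -1.40, -0.62 and 2.18 in controls. Control replicate 3 thus overlapped the lowest HIFU tumors. The tumors with the highest muscle median at each time, 24 h replicate 1, 48 h replicate 2 and 72 h replicate 2, were also those with the highest Egln3 and Ndrg1 signals of that time. The same tumors had the highest fibroblast medians of their time (4.13, 5.88 and 6.79) and the highest endothelial medians (1.60, 1.54 and 1.55). Muscle and these other tissues thus cannot be told apart here. The log2 of the summed linear signal of the muscle markers ran from 20.60 to 22.24 in HIFU tumors and from 16.93 to 20.58 in controls.

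With the muscle median as a covariate, 0 of the 33 genes passed, and the median difference was -0.89 at 24 h and -1.0 at 72 h. In that fit the sign of the mean difference turned for 6 genes, to negative for Hk2 (-1.09), Aldoa (-0.07), Pkm (-0.62), Pfkfb4 (-0.55) and Ndrg1 (-0.86), and to positive for Pfkp (0.70). Egln3 was at 0.29 ± 0.81 SE in that fit. Aldoc was at -2.53 ± 0.78 SE, Ddit4 at -1.89 ± 0.57 SE, Stc2 at -1.56 ± 0.60 SE and Slc16a3 at -1.10 ± 0.47 SE, with Pfkl at -0.68 and Kdm3a at -0.48, all with an adjusted p of 1. Ankrd37 and P4ha1 also kept a negative sign in that fit. Of the 33 genes, 29 were negative in it at 24 h, 28 at 48 h, 30 at 72 h and 30 for the mean. The muscle content and the HIFU groups differed together, so their parts cannot be told apart in these tumors.

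Of the neutrophil, fibroblast, erythroid and macrophage markers, 0 passed the threshold in any comparison with control (limma, smallest adjusted p = 0.0789, a neutrophil marker at 72 h). For the mean of the HIFU groups, 10 of 10 neutrophil, 5 of 7 fibroblast, 4 of 6 erythroid and 3 of 7 macrophage markers were higher at an unadjusted p under 0.05 and 1 fibroblast marker was lower, beside 6.01% higher and 8.59% lower of all probe sets. Relative to its control mean, the median of 10 neutrophil markers ran from 0.03 to 9.23 in HIFU tumors and from -0.18 to 0.17 in controls, and that of 7 fibroblast markers from 0.21 to 6.79 in HIFU tumors and from -0.74 to 1.33 in controls. For 6 erythroid markers the range was 0.09 to 6.29 in HIFU tumors and -0.28 to 0.24 in controls, and for 7 macrophage markers it was -1.12 to 3.61 in HIFU tumors and -0.27 to 0.45 in controls. The median of the neuroblastoma markers ran from -1.45 to 1.43 in HIFU tumors and from -1.52 to 1.55 in controls, a spread of like size. Among controls their median was highest in replicate 3 and lowest in replicate 1, the reverse of the order of Aldoc, Stc2, P4ha1, Kdm3a and Pfkl. Ankrd37 and Slc16a3 had the same order as these markers, and Ddit4 was highest in replicate 3 and lowest in replicate 2. The part of these markers in the results above was not tested.

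**Figure D5:**
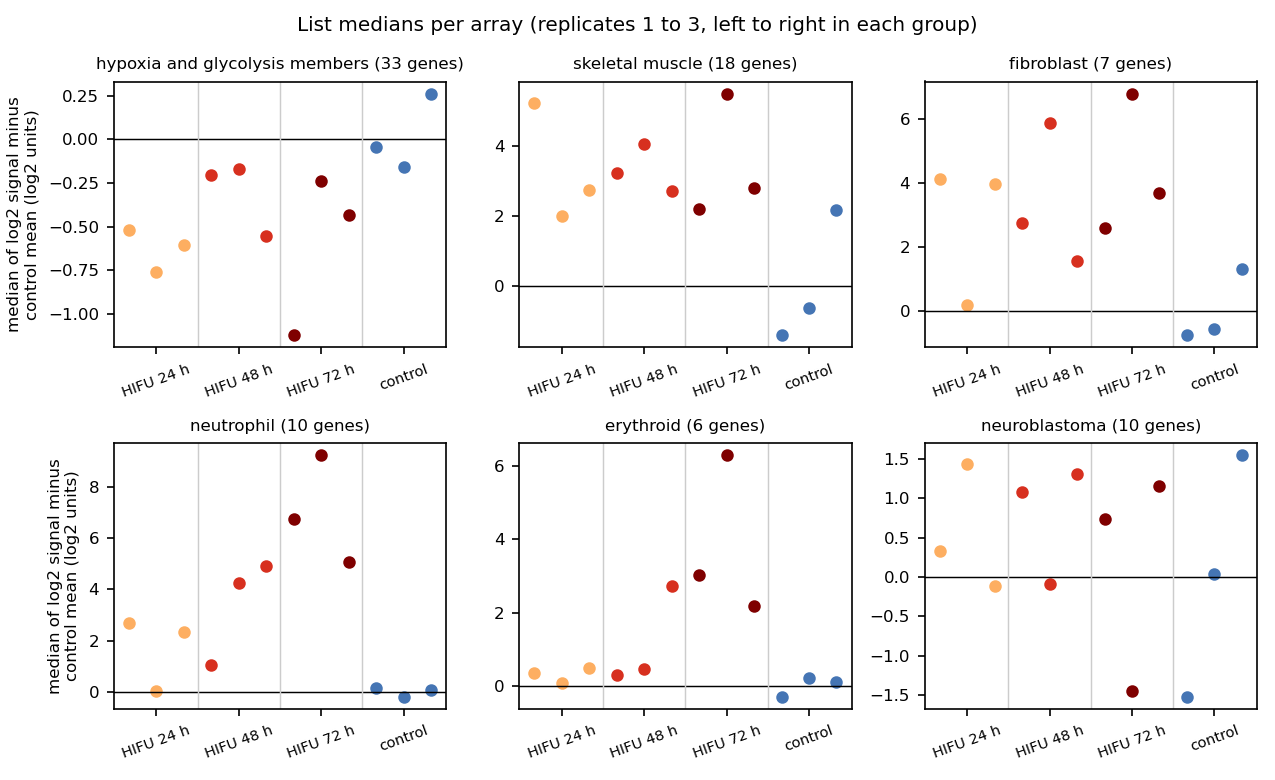
Median over each gene list of the log2 signal minus the control mean (y axis, log2 units, own scale in each panel), for each tumor, with replicates 1 to 3 from left to right in each group. The 33 hypoxia and glycolysis genes lie below the controls in all HIFU tumors, from -1.12 to -0.17 in HIFU tumors against -0.16 to 0.26 in controls, and skeletal muscle, fibroblast, neutrophil and erythroid medians are mostly above the controls.

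Single genes passed under some alternatives. Without control replicate 3, which was high in muscle transcripts, Aldoc, P4ha1 and Stc2 passed at each of the 3 times, and Aldoa passed as well for the mean of the HIFU groups. In that setting 253, 312 and 194 of all 22206 probe sets passed at 24, 48 and 72 h, and 398 for the mean. With array weights, 9 genes passed at 24 h (7 lower and 2 higher), 7 at 48 h (all lower), 11 at 72 h (all lower) and 15 for the mean of the HIFU groups (11 lower and 4 higher). Of all 22206 probe sets, 1118, 944 and 1846 passed with array weights at 24, 48 and 72 h. These weights gave control replicate 2 a weight of 4.19 and 72 h replicate 2 one of 0.31, and under them 3787 probe sets passed for the mean of the HIFU groups. For that mean, Aldoc also passed without the lowest 25% of probe sets and with an intensity trend, and Aldoc, Ankrd37 and Stc2 passed without 24 h replicate 2. Ddit4 passed at 72 h without 72 h replicate 3. Over the settings that each left out 1 array, 1 to 398 of all probe sets passed for the mean and 1 to 194 at 72 h.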

How the data were processed

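The authors deposited log2 signals for each probe set, between 1.75 and 19.93. The base was inferred from this range. Per the submitters' processing notes, Transcriptome Analysis Console 4.0 was used; further steps are not given in the sources. Array medians lay between 5.43 and 5.68, no further scaling was applied, and differences are relative to the other genes of the array. Precision is limited by 3 arrays per group.

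Symbols came from the platform annotation and RefSeq GRCm38.p6, with 1 symbol for 19572 and none for 2634. Where a gene had several, the probe set with the highest mean was taken. Groups came from the labels. A mean per group was fitted to all 12 arrays with limma 3.58.1 (lmFit and eBayes, R 4.3.3), two-sided, with Benjamini-Hochberg adjustment over 22206 probe sets. The fit was tested on simulated data. Tables were made in Python 3.11.15. Alternatives were a replicate block, a filter of the lowest 25%, quantile normalization, median centring, an intensity trend, array weights, only the groups compared, probe set means, a muscle covariate and leaving out each array.

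The genes and lists were chosen with earlier results of these data known. Given per array by rule were the 8 genes with the smallest p for the mean of the HIFU groups and the 3 smallest at each time. Of each related list, genes past the threshold were named, or else the 2 with the smallest p. Egln3, Bnip3, Ndrg1, Aldoa and the isozymes were added after their values were seen.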

Additional observations from a re-analysis of the deposited data

How the results depend on the processing

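The direction of the 8 genes with the smallest p (Aldoc, Stc2, Ddit4, Ankrd37, P4ha1, Slc16a3, Kdm3a and Pfkl) was the same under every alternative run. All HIFU tumors lay below all controls for these genes. Alternatives that only dropped or weighted arrays or filtered probe sets therefore could not turn their direction. The replicate block, the intensity trend, the fit of only the groups compared and the probe set means left their differences unchanged by design. Quantile normalization, median centring and the muscle covariate were not bound in these ways. Of 664 values of these 8 genes in the 4 comparisons with control, 617 stayed on their side of the threshold and 47 passed it. The numbers of the labels gave no sign of pairing the arrays. Deviations of same-numbered arrays correlated between -0.61 and 0.62, over 0.1 in 4 of 18 pairs, and 2 of 12 arrays correlated best with their own number. Arrays of different numbers correlated between -0.58 and 0.60. With tumors of different numbers varying together this widely, the check cannot exclude a pairing. With the replicate block, 0 of the 33 genes passed, and 3, 0 and 1 probe sets passed at 24, 48 and 72 h and 1 for the mean of the HIFU groups, against 12, 1, 2 and 4 without it.

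Array weights raised the probe sets to 1118, 944, 1846 and 3787 and the genes of the list to 9, 7, 11 and 15, and 7 probe sets differed between 72 h and 24 h. Without the lowest 25% of probe sets, 4 passed at 72 h and 15 for the mean, among them 1 of the 33 genes, Aldoc. The intensity trend gave 14 for the mean, again with 1 gene, Aldoc. Median centring gave 14 for the mean and quantile normalization 1 at 72 h. With only the groups compared, 6 passed at 48 h and 2 between 72 h and 24 h. With the muscle covariate, 0, 0, 1 and 1 passed, and the median difference of the 33 genes was -0.89 at 24 h and -1.0 at 72 h.

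Leaving out each array in turn gave 0 to 253, 0 to 312, 1 to 194 and 1 to 398 probe sets at 24, 48 and 72 h and for the mean. Of the 33 genes 0 to 3 passed at each time and 0 to 4 for the mean. Leaving out control replicate 3 gave each of these highest values. Without 24 h replicate 2, Aldoc, Stc2 and Ankrd37 passed for the mean, and without 72 h replicate 3, Ddit4 passed at 72 h. Between 72 h and 48 h the count was 0 to 2, and between 72 h and 24 h 0 to 7, with a median difference of -0.12 to 0.11 for the 33 genes. The cause of these shifts was not tested.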
